A study of Homo sapiens with 9 samples.

Results

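The homing receptors and integrins described here are 9 genes, chosen by their GENCODE release 44 symbols out of the 62700 genes in the deposited tables: CXCR4, CCR7, S1PR1, P2RY8, CD44, ITGA4, ITGA5, ITGB1 and ITGAL. Their RNA was measured by bulk sequencing of HAL-01, a cell line of acute lymphoblastic leukemia of the B lineage (B-ALL) in which t(17;19) fuses TCF3 to HLF, and which had been engineered to express Cas9 and GFP stably. On day 13, 3 groups of 3 libraries were compared, each from cells with 1 lentiviral single guide RNA. The guides sgRNA_96 and sgRNA_97 were both directed at the HLF motif in the MEF2C enhancer that TCF3::HLF binds and form the genotype class MEF2C enhancer KO (6 libraries), and SCR1 is the scrambled control (3 libraries). All 9 libraries thus share the HAL-01 background, the fusion, Cas9-GFP and a lentiviral vector, and the study asks what losing the motif does to gene expression. The share of edited cells in these libraries was not analysed here, and nothing in the labels says whether replicates were separate cultures, so p-values measure the spread between these libraries.

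Leukocytes leave the blood, settle in a niche and move on again by combining signals from G protein-coupled receptors with adhesion. Chemokine and lipid receptors read gradients: CXCR4 binds CXCL12 and holds B cell precursors in the bone marrow, CCR7 steers cells to lymph nodes, S1PR1 draws cells out of tissue toward sphingosine-1-phosphate in blood, and P2RY8 is a migration-inhibiting receptor of B cells. CD44 binds hyaluronan. Integrins are pairs of an α and a β chain: ITGA4 and ITGA5 both pair with ITGB1, to bind VCAM1 and fibronectin, and ITGAL pairs with ITGB2 to bind ICAM proteins. In B-ALL, CXCR4 and the ITGA4 pair are known for anchoring blasts to marrow stroma.

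The study used 3 spacers against the enhancer and 1 scrambled spacer, and they are shown because the first 2 carry the targeted motif itself. Each is printed 5′ to 3′ without the cloning bases, and capitals mark the match to the HLF motif, TTACATAA.
E.1: tagcaTTACATAAtacatgt
E.2: ttagcaTTACATAAtacatg
E.3: tcaaagttcttggaacagga
Cntr1: gtagcgaacgtgtccggcgt
E.1 matched hg38 at chr5:88825103-88825122 on the minus strand and E.2 at chr5:88825104-88825123, so both read the same stretch with the motif starting at base 6 of E.1 and base 7 of E.2. E.3 matched chr5:88825164-88825183 on the plus strand and holds no such motif. Each of these 3 had 1 exact match on the assembled chromosomes, inside the MEF2C gene model (chr5:88717117-88904257, minus strand), in an intron and about 79.15 kb from its annotated 5′ end for E.1. Cntr1 had 0 exact matches. Which of E.1, E.2 and E.3 are called sgRNA_96 and sgRNA_97 is not given in the sources used here.

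Library totals ranged from 15212462 to 29777361 estimated counts, with the deepest library in SCR1, and mitochondrial genes took 5.97 to 7.01% of them. CPM are counts scaled to a library of 1000000, and TPM are abundances per transcript length scaled to the same total. MEF2C itself, the gene of the targeted enhancer, measured 552 ± 13.4 CPM (mean ± SD, n = 3) in SCR1 and 509 ± 22.1 CPM (n = 6) with the enhancer guides. Its log2 fold change of -0.12 ± 0.04 (SE) did not pass the quasi-likelihood test of edgeR (adjusted p = 0.062). The 95% interval ran from -0.20 to -0.03, and 5 of 6 KO libraries lay below every control. The study, which used DESeq2, reported MEF2C as down-regulated in its RNA sequencing of enhancer KO cells. It also reported lower MEF2C RNA by RT-qPCR and lower protein by Western blot. All 8 B-lineage markers looked up were expressed, at a summed 2976 to 3164 TPM in SCR1 and 2633 to 3098 TPM in KO libraries. Of 5 T cell markers, CD3D, CD3E and CD3G had 0 counts in every library, and TRAC carried nearly all of the summed 82.6 to 88.4 TPM in SCR1 and 67.8 to 79.8 TPM in KO libraries (TRAC log2 fold change -0.24, adjusted p = 0.00994). The 5 myeloid markers summed to 13.1 to 16.4 TPM in SCR1 and 11.99 to 16.7 TPM in KO libraries, with ELANE at 0. MPO, at a mean of 2.38 TPM, was called higher (log2 fold change 1.08, adjusted p = 0.000894, edgeR). CSF1R, which held most of the sum at a mean of 11.4 TPM, leaned lower and was not called (-0.21, adjusted p = 0.124, edgeR). The 4 stromal markers summed to 5.11 to 6.80 TPM in SCR1 and 4.501 to 6.39 TPM in KO libraries, with COL1A2 and COL3A1 at 0, and the 4 erythroid markers were at 0 throughout. The part of these shifts in the results that follow was not tested, and in bulk RNA fewer cells with a transcript and less of it per cell cannot be told apart.

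Of the 9 genes, 7 passed the low-count filter, and 4 of those 7 were called higher in the MEF2C-enhancer KO libraries, by 8.55 to 19.1%: ITGA4, ITGB1, ITGA5 and CXCR4. None was called lower. A gene is called when its edgeR p-value, adjusted by Benjamini-Hochberg over all 14436 genes tested, is under 0.05. By that rule 20.7% of all genes tested were called in either direction and 10.1% were called higher, so changes of this kind were common across the transcriptome. The median log2 fold change was 0.19 over the 7 and 0.0028 over all genes tested. The 4 calls became 2 without SCR1 replicate 4, 1 with an offset for gene length (ITGB1), and 1 or 0 when TPM values were tested with limma at a pseudocount of 0.1 or 1, where 5 of the 7 genes had an unadjusted p under 0.05.

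ITGA4, the α chain of the VCAM1 receptor (chr2:181457202-181538940, plus strand), measured 198, 216 and 215 CPM in SCR1 replicates 1, 3 and 4. It measured 229, 261 and 245 CPM in the sgRNA_96 libraries and 254, 262 and 245 CPM in the sgRNA_97 libraries. Every KO library lay above every SCR1 library, with the lowest KO value in sgRNA_96 replicate 1. The means were 209.5 ± 10.4 CPM in SCR1 and 249 ± 12.3 CPM in KO, which gave a log2 fold change of 0.25 ± 0.05 (SE), a rise of 19.1%, at an adjusted p of 0.00202 (edgeR).

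ITGB1, the β chain that pairs with both ITGA4 and ITGA5 (chr10:32887273-33005792, minus strand), measured 124, 131 and 120 CPM in SCR1. It measured 134, 152 and 153 CPM with sgRNA_96 and 153, 143 and 144 CPM with sgRNA_97. The groups did not overlap, though sgRNA_96 replicate 1 came within a few CPM of the highest control. The log2 fold change was 0.23 ± 0.05 (SE), a rise of 17.4%, at an adjusted p of 0.0048 (edgeR).

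ITGA5, the fibronectin receptor α chain (chr12:54395261-54419266, minus strand), measured 89.8, 88.6 and 84.4 CPM in SCR1. It measured 103, 94.8 and 101 CPM with sgRNA_96 and 98.1, 99.9 and 102 CPM with sgRNA_97. Again all KO libraries were above all controls, and the lowest was sgRNA_96 replicate 3. The log2 fold change was 0.19 ± 0.05 (SE), a rise of 13.8%, at an adjusted p of 0.00831 (edgeR), and 0.0643 without SCR1 replicate 4.

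CXCR4, the CXCL12 receptor (chr2:136114349-136119177, minus strand), measured 350, 363 and 333 CPM in SCR1. It measured 367, 380 and 368 CPM with sgRNA_96 and 394, 380 and 383 CPM with sgRNA_97. The KO and control values did not overlap, but the lowest KO library stood only just above SCR1 replicate 3. The log2 fold change was 0.12 ± 0.04 (SE), a rise of 8.55%, at an adjusted p of 0.0488 (edgeR), the narrowest of the 4 calls. That call was lost under 12 of 20 other settings, with an adjusted p of 0.136 without SCR1 replicate 1, 0.258 without SCR1 replicate 4, 0.088 without sgRNA_96 replicate 3, and 0.087, 0.072 and 0.094 without sgRNA_97 replicates 1, 3 and 4. For these 4 genes all KO values exceeded all SCR1 values, which was also so for 10.1% of all genes tested.

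**Figure D1:**
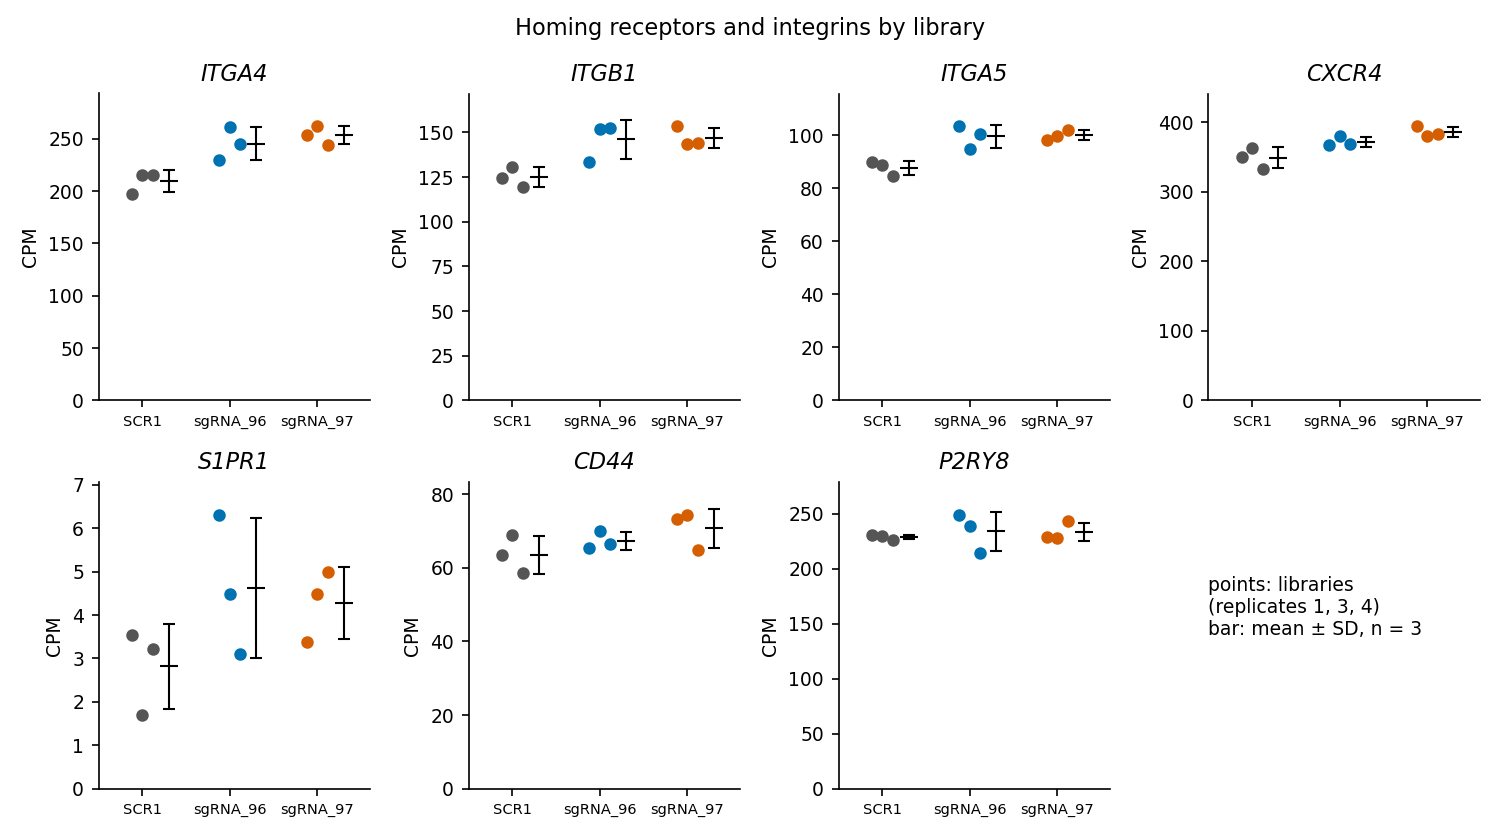
Expression of the 7 tested genes in CPM (vertical axes, each starting at 0) in the 9 libraries, grouped as SCR1, sgRNA_96 and sgRNA_97. Points are libraries and bars show the mean ± SD of 3. ITGA4, ITGB1, ITGA5 and CXCR4 show KO points all above the SCR1 points, while those of S1PR1, CD44 and P2RY8 overlap them.

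S1PR1, the egress receptor (chr1:101236865-101243713, plus strand), had the largest fold change of the 7 and the fewest reads, from 30 to 104 counts per library. It measured 3.53, 1.71 and 3.21 CPM in SCR1, 6.31, 4.48 and 3.09 CPM with sgRNA_96 and 3.38, 4.47 and 4.99 CPM with sgRNA_97. In 4 of 6 KO libraries it lay above every control, and the groups overlapped. The log2 fold change of 0.63 ± 0.25 (SE) had a 95% interval of 0.11 to 1.16 and did not pass (adjusted p = 0.0801, edgeR). It passed under 2 of 20 other settings, DESeq2 (adjusted p = 0.0468) and edgeR with no low-count filter (0.0309). Without SCR1 replicate 3, the lowest control, the log2 fold change was 0.39 (adjusted p = 0.293).

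CD44, the hyaluronan receptor (chr11:35138882-35232402, plus strand), measured 58.5 to 68.9 CPM in SCR1 and 64.7 to 74.4 CPM in KO libraries, and the groups overlapped. Its log2 fold change was 0.12 with a 95% interval of -0.01 to 0.25 (adjusted p = 0.181, edgeR). P2RY8, the migration inhibitor (chrX:1462581-1537185, minus strand), measured 227 to 231 CPM in SCR1 and 214.5 to 249 CPM in KO libraries, with KO values on both sides of the controls. Its log2 fold change was 0.03 with an interval of -0.07 to 0.13 (adjusted p = 0.703, edgeR), and the interval as a fold was 0.953 to 1.09. CCR7 (chr17:40553769-40565472, minus strand) had 4 to 14 counts in SCR1 and 1 to 10 in KO libraries. ITGAL (chr16:30472658-30523567, plus strand) had 1 to 7 and 0 to 6. Both failed the filter, and a difference in either was not detectable at this depth.

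The guides were then taken one at a time. The spacers that carry the motif, E.1 (chr5:88825103-88825122) and E.2 (chr5:88825104-88825123), overlap almost fully on the same strand. Agreement between guides against this motif is therefore not agreement between independent sequences. ITGA4, ITGB1 and ITGA5 were called higher with both. With sgRNA_96 the log2 fold changes were 0.23 for ITGA4 (adjusted p = 0.0194), 0.23 for ITGB1 (0.0262) and 0.18 for ITGA5 (0.041), all by edgeR. With sgRNA_97 they were 0.28 (0.00568), 0.23 (0.0192) and 0.19 (0.0295) in the same order. Among all genes tested, 5.78% were called higher with sgRNA_96 and 7.35% with sgRNA_97. Both comparisons use the same 3 SCR1 libraries. CXCR4 passed with neither guide (0.09, adjusted p = 0.232, and 0.14, adjusted p = 0.0517), nor did S1PR1 (0.68, adjusted p = 0.14, and 0.58, adjusted p = 0.194). The counts of 3 rest on single libraries: with sgRNA_96 it fell to 0 without SCR1 replicate 1 or sgRNA_96 replicate 3 and to 1 without SCR1 replicate 4 or sgRNA_96 replicate 4, and with sgRNA_97 it fell to 1 without SCR1 replicate 1, SCR1 replicate 4 or sgRNA_97 replicate 1.

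Set against each other directly, the guides differed in 0 of the 7 genes (edgeR, adjusted p of 1 for each), with 0 at an unadjusted p under 0.05 and 0 by DESeq2. Across all genes tested, 0.0208% differed between the guides. The interval of the difference, sgRNA_97 minus sgRNA_96, ran from -0.08 to 0.17 in log2 units for ITGA4, from -0.12 to 0.14 for ITGB1, from -0.11 to 0.12 for ITGA5 and from -0.05 to 0.15 for CXCR4. For S1PR1 it ran from -0.71 to 0.50, which leaves room for a sizeable difference either way.

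**Figure D2:**
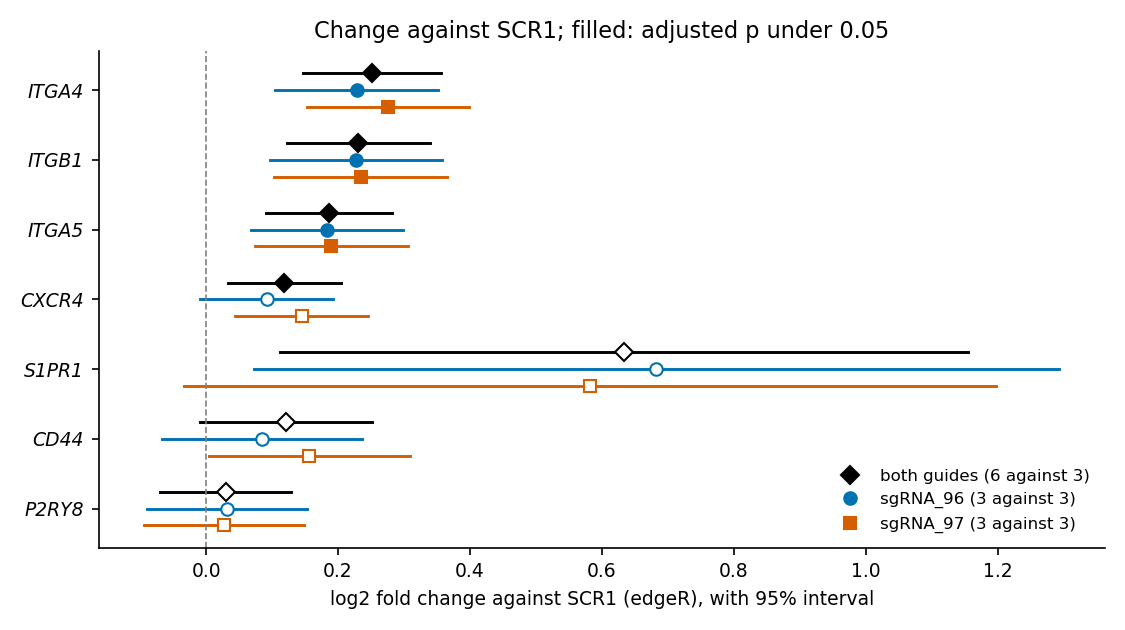
Log2 fold change against SCR1 (horizontal axis) with its 95% interval for the 7 tested genes, for both guides pooled (diamonds), sgRNA_96 (circles) and sgRNA_97 (squares), with filled symbols for an adjusted p under 0.05. The 3 ITGA4, ITGB1 and ITGA5 estimates lie between 0.18 and 0.28, and the S1PR1 intervals are the widest.

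Levels can be set side by side in TPM, which divides by transcript length. In SCR1 the order was CXCR4 (298 ± 18.1 TPM), P2RY8 (71.96 ± 1.68), ITGA4 (56.8 ± 3.46), ITGB1 (44.9 ± 2.69), ITGA5 (32.8 ± 0.671), CD44 (31.5 ± 4.15), S1PR1 (1.48 ± 0.549), CCR7 (0.274 ± 0.136) and ITGAL (0.243 ± 0.351), each as mean ± SD of 3 libraries. CXCR4 stood 4.14-fold above the next gene and higher than 97.7% of all genes tested. ITGA5 and CD44 did not differ beyond their spread over the SCR1 libraries, and neither did CCR7 and ITGAL, while the other neighbours did not overlap. The order was the same with sgRNA_96, with sgRNA_97 and in CPM per kilobase of the longest coding transcript.

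Paired integrin chains were also set against each other within each library. The TPM ratio of ITGA4 to ITGB1 was 1.27 ± 0.0231 in SCR1, 1.30 ± 0.14 with sgRNA_96 and 1.26 ± 0.20 with sgRNA_97 (SD, n = 3 each). That of ITGA5 to ITGB1 was 0.732 ± 0.0302, 0.668 ± 0.0798 and 0.737 ± 0.0425. ITGB2, the partner that ITGAL needs, stood at 64.1 ± 0.348 CPM in SCR1 and 64.0 ± 5.48 CPM in KO (log2 fold change -0.0032, 95% interval -0.14 to 0.13, adjusted p = 0.98), far above the few counts of ITGAL. ITGB7, the other β partner of ITGA4, measured 6.28 ± 0.69 CPM in SCR1 and 5.26 ± 0.734 CPM in KO (adjusted p = 0.236).

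**Figure D3:**
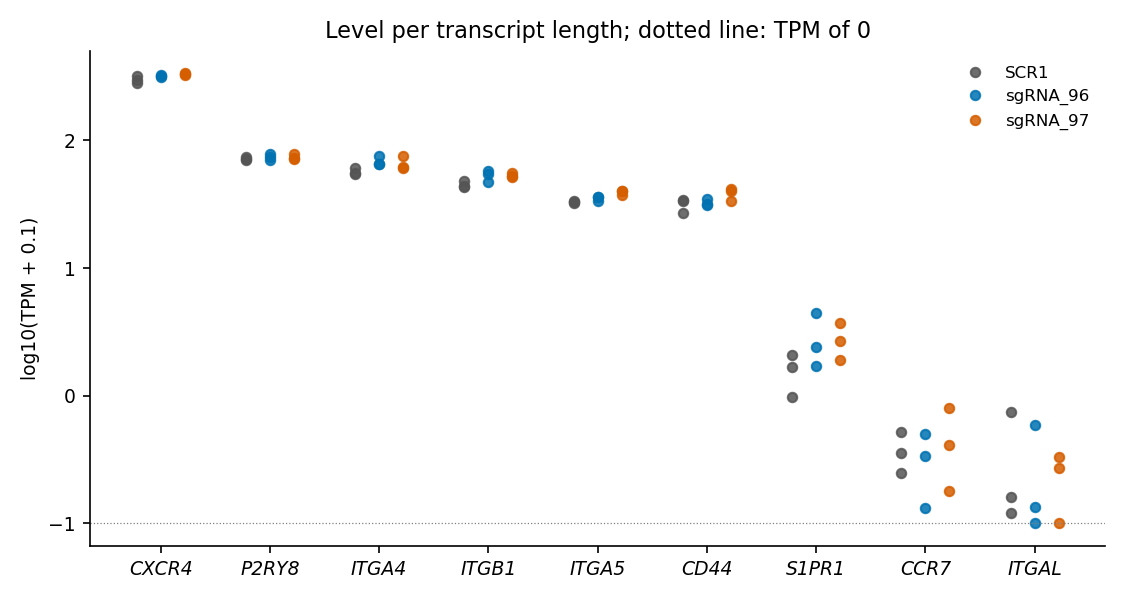
Level of the 9 genes as log10(TPM + 0.1) (vertical axis) in each library, coloured by group and ordered by the SCR1 mean. CXCR4 is at the top, P2RY8 to CD44 form a middle range from 71.96 to 31.5 TPM in SCR1, and CCR7 and ITGAL lie near the dotted line for a TPM of 0.

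The transcripts behind these sums were mostly single coding forms. CXCR4-201 held 98.1% of the CXCR4 TPM in SCR1 and 97.8% in KO, and P2RY8-201 held 99.6% and 99.5%. ITGB1-201 held 87.8% and 87.0%, ITGA5-201 78.2% and 80.1%, and the 28-exon ITGA4 transcript 67.6% and 68.8%, with most of the remaining ITGA4 signal on retained-intron models. CD44-201, a 9-exon form of the 38 CD44 transcripts annotated, held 49.3% and 47.6%. Of the S1PR1 transcripts 3 have the same coding length, and the share of S1PR1-201 swung between 0 and 97.5% from library to library. Other gene models that overlap the 4 called genes averaged at most 2.56 counts per library. Whether these shares differed between KO and SCR1 was compared by an exact permutation test over 84 arrangements. Its unadjusted p ran from 0.357 for CXCR4 to 0.857 for ITGB1, so no share passed even before adjustment. The test gives no p under 0.0119, so no single share could have passed an adjustment over 7 genes, and the question stays unanswered. The TPM of that ITGA4 transcript alone was 38.4 ± 2.33 in SCR1 and 46.1 ± 2.27 in KO, and that of ITGA5-201 was 25.7 ± 1.41 and 29.5 ± 1.41, with no overlap between the groups. For the other 2 called genes the groups overlapped, at 293 ± 17.1 and 319 ± 9.63 TPM for CXCR4-201 and 39.5 ± 5.48 and 45.9 ± 3.58 TPM for ITGB1-201. All 4 genes had already been called on their summed counts, so these values are no separate support. How often groups fail to overlap over all transcripts was not computed.

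The bases before the start sites of the 4 called genes are shown because all 4 were called higher in KO. The stretches below end at, or as close as possible to, the start of the main transcript, are cut where another annotated exon of the gene begins, and come from RefSeq promoters on GRCh38.p14. Capitals mark the GC box GGGCGG read on either strand.
CXCR4, chr2:136118150-136118399, minus strand: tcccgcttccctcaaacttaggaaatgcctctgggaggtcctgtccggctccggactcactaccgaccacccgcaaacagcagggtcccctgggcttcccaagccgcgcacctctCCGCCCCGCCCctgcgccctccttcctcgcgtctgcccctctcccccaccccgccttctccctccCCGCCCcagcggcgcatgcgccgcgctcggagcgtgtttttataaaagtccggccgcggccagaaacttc
ITGA5, chr12:54419267-54419516, minus strand: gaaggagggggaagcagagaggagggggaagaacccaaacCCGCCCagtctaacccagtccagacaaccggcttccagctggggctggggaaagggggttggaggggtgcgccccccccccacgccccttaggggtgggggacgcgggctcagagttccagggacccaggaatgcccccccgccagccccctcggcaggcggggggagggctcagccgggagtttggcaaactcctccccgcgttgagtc
ITGB1, chr10:32958326-32958480, minus strand: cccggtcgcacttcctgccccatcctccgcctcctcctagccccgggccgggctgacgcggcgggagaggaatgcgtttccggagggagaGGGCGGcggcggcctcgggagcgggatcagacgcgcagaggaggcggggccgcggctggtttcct
ITGA4, chr2:181457136-181457201, plus strand: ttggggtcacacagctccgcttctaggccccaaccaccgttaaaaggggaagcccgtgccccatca
In the full 250 bases before the start, G and C made up 68.0% for CXCR4, 70.0% for ITGA5, 78.4% for ITGB1 and 72.8% for ITGA4, against a median of 58.0% over 34943 promoters. In the tested genes that were not called, the value was 64.4% for S1PR1, 62.4% for CD44 and 54% for P2RY8. Motifs were read on both strands. The GC box occurred in 5 of the 7 genes searched and in 42.5% of all promoters. These were CXCR4, ITGA5 and ITGB1, and also P2RY8 and CD44, which were not called. ITGA4 and S1PR1 had none, and 2 of the 3 matches in CXCR4 share a base. CXCR4 alone among the 7 genes searched held TATAAA, found in 10.8% of all promoters. The 2 HLF motifs searched, TTACGTAA and TTACATAA (TTATGTAA on the other strand), were found in 0 of the 7 and in 0.106% and 0.839% of all promoters, and the MEF2 consensus in 0 of the 7 and in 2.81% of all. These are letter matches in a short window and say nothing on binding.

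The wider machinery was followed in 7 lists of 191 genes, chosen by known function, of which 132 were tested, 27 called higher and 9 called lower. That is 27.3% called, beside the 20.7% of all genes tested. The count fell to 21 of the list genes without SCR1 replicate 1.

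Among 32 other trafficking receptors 9 were tested and 2 called, both higher (22.2%, close to the 20.7% of all genes tested). LTB4R2 rose from 5.23 ± 0.753 to 7.04 ± 0.789 CPM (log2 fold change 0.44, adjusted p = 0.0349, edgeR) and LTB4R, named after its values were seen, from 20.3 ± 1.58 to 25.5 ± 3.38 CPM (0.33, adjusted p = 0.0301). They are leukotriene B4 receptors whose gene models overlap on the same strand, so their reads may be shared. The LTB4R2 call was lost under 9 of 20 other settings and that of LTB4R under 10. The count of 2 became 0 without SCR1 replicate 1, SCR1 replicate 4, sgRNA_97 replicate 3 or sgRNA_97 replicate 4, 1 without SCR1 replicate 3 or sgRNA_96 replicate 3, and 0 with the gene length offset or TPM. ACKR3, the other CXCL12 receptor, failed the filter at 1.11 counts per library on average.

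Of 22 other integrin chains 10 were tested and 3 called, all higher. ITGAM, an α chain of myeloid cells that pairs with ITGB2, rose from 6.81 ± 0.635 to 11.4 ± 0.793 CPM (log2 fold change 0.74, adjusted p = 0.000162, edgeR). ITGA6, a laminin receptor chain, rose from 23.1 ± 1.15 to 32.1 ± 2.69 CPM (0.48, adjusted p = 0.000463). ITGA8, which pairs with ITGB1, rose from 63.7 ± 2.88 to 78.8 ± 6.14 CPM (0.31, adjusted p = 0.00267). In each, 6 of 6 KO libraries lay above all controls, which was also so for 10.1% of all genes tested. These calls did not hold under every setting. All 3 stayed with the length trend offset. The TPM settings used limma, so the measure and the test changed together, and which of them mattered was not tested. With the gene length offset the log2 fold change of ITGA6 was 0.15 (adjusted p = 0.658) and that of ITGAM 0.63 (0.0714), which left 1 call, and with TPM none of the 3 passed (adjusted p up to 0.786 for ITGA6, 0.296 for ITGAM and 0.112 for ITGA8). The median of the 10 was 0.0029 in log2 units, and the other 7 did not pass.

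Proteins that switch integrins on or tie them to the cytoskeleton gave 5 calls among 30 tested, 4 higher and 1 lower. That is 16.7%, under the 20.7% of all genes tested. PARVG, a parvin that links integrins to actin, rose from 61.1 ± 8.11 to 83.0 ± 6.51 CPM (log2 fold change 0.44, adjusted p = 0.00111, edgeR). RASGRP2, an exchange factor that loads the integrin activator RAP1, rose from 70.9 ± 1.87 to 89.3 ± 6.53 CPM (0.33, adjusted p = 0.00109). CYTH1, a cytohesin that binds the ITGB2 tail, rose by 13.8% (adjusted p = 0.00815). The kindlin FERMT2, named after its values were seen, rose by 13.1% (adjusted p = 0.0286), a call lost under 10 of 20 other settings. ITGB1BP1, which binds the ITGB1 tail and restrains it, fell from 43.4 ± 1.63 to 37.4 ± 2.03 CPM (-0.21, adjusted p = 0.0173), and its adjusted p was 0.0693 without SCR1 replicate 1 and 0.0658 without SCR1 replicate 3. The count of 5 became 3 without SCR1 replicate 1 and 8 without sgRNA_96 replicate 1.

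G protein signalling and migration genes gave 5 calls among 37 tested, 4 higher and 1 lower. That is 13.5%, under the 20.7% of all genes tested. GNG2, a Gγ subunit, rose from 155 ± 5.06 to 224 ± 6.43 CPM (log2 fold change 0.53, adjusted p = 7.56e-07, edgeR). GRK5, a kinase that desensitizes receptors, rose from 10.9 ± 1.51 to 16.3 ± 1.43 CPM (0.58, adjusted p = 0.001), and PREX1, a Rac exchange factor, from 36.9 ± 1.17 to 48.3 ± 3.94 CPM (0.39, adjusted p = 0.000897). PIK3CG, the kinase subunit downstream of such receptors and named after its values were seen, rose by 0.26 in log2 units (adjusted p = 0.000633). RGS16, a GTPase activator that ends Gα signals, fell from 14.3 ± 1.92 to 10.1 ± 1.05 CPM (-0.49, adjusted p = 0.00484). The count of 5 became 8 without SCR1 replicate 3 or sgRNA_96 replicate 1.

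Selectins, their ligands and adhesion partners gave 16 calls among 33 tested, 11 higher and 5 lower (48.5%, beside 20.7% of all genes tested). The count of 16 fell to 8 without SCR1 replicate 1, 9 without SCR1 replicate 4, 9 with the gene length offset and 5 to 8 with TPM. SELPLG, the P-selectin ligand, stood at 0.736 ± 0.225 CPM in SCR1 and 1.55 ± 0.202 CPM in KO (log2 fold change 1.07, adjusted p = 0.0193, edgeR), on 23.7 counts per library, and did not pass without SCR1 replicate 1 (0.104) or SCR1 replicate 3 (0.0748). ST3GAL6, a sialyltransferase that caps selectin ligands, rose from 8.53 ± 0.223 to 13.8 ± 1.22 CPM (0.70, adjusted p = 0.00014), and the tetraspanin CD37 from 15.3 ± 0.655 to 24.4 ± 2.24 CPM (0.68, adjusted p = 5.24e-05). ICAM1, a ligand of the ITGAL pair, fell from 12.5 ± 0.351 to 8.87 ± 0.302 CPM (-0.49, adjusted p = 0.000996).

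Ligands and lipid enzymes gave 2 calls among 8 tested (25.0%, beside 20.7% of all genes tested). SPHK1, which makes the S1PR1 ligand, fell from 6.16 ± 0.916 to 4.201 ± 0.36 CPM (log2 fold change -0.55, adjusted p = 0.0129, edgeR), and ABCC1, a transporter that can export it, rose from 80.9 ± 2.57 to 94.4 ± 3.81 CPM (0.22, adjusted p = 0.00401). The SPHK1 call was lost without SCR1 replicate 1 (0.0852) or SCR1 replicate 3 (0.0506), which left 1 call. CXCL12 had 0 counts in every library. Of the regulators, 5 were tested and 3 called (60.0%, beside the same 20.7%). FOXO1, a factor known to drive S1PR1, rose from 151 ± 6.36 to 195 ± 11.9 CPM (0.37, adjusted p = 0.000157) and FOXO3 from 35.3 ± 2.42 to 41.1 ± 2.26 CPM (0.23, adjusted p = 0.0195), the latter with an adjusted p of 0.144 without SCR1 replicate 1 and 0.0739 without SCR1 replicate 4. CD69, which holds S1PR1 inside the cell, stood at 1.45 ± 0.473 CPM in SCR1 and 0.59 ± 0.354 CPM in KO (-1.28, adjusted p = 0.0443, lost under 13 of 19 other settings, each run without 1 SCR1 library among them). The count of 3 became 1 without SCR1 replicate 1 or SCR1 replicate 4. KLF2, another driver of S1PR1, averaged 3.44 counts per library and was not tested.

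**Figure D4:**
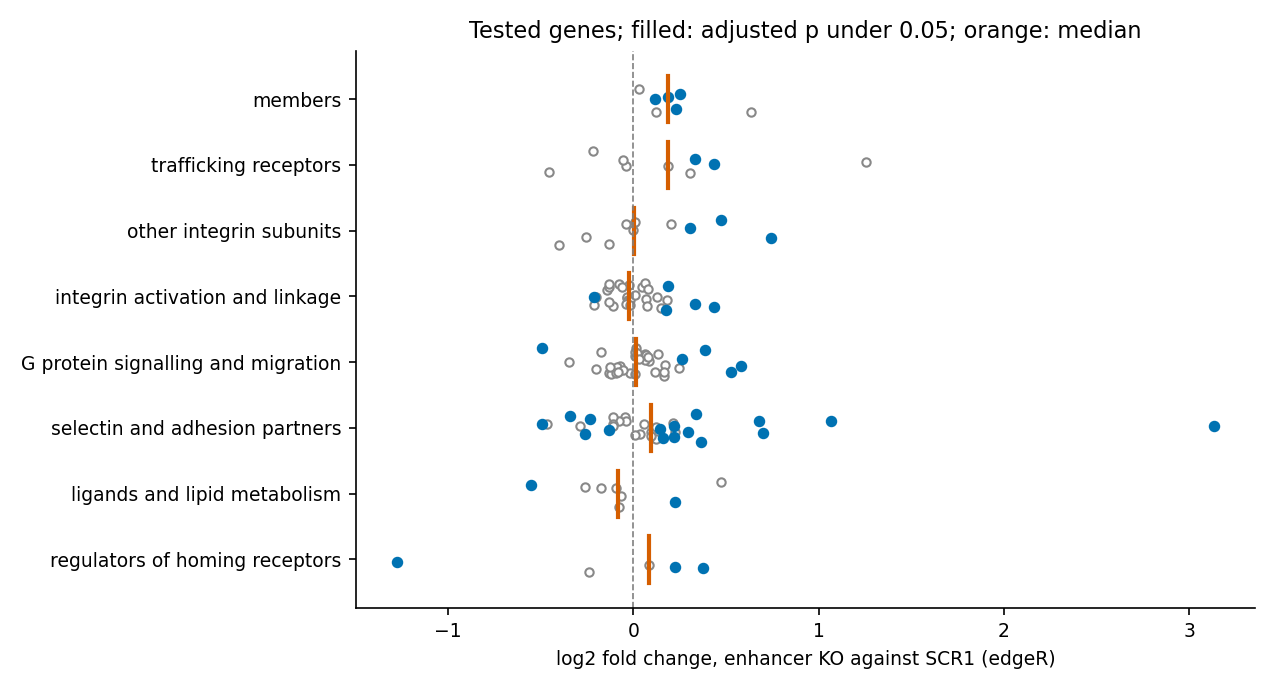
Log2 fold change of enhancer KO against SCR1 (horizontal axis) for the tested genes of the 9 and of the 7 lists, one point per gene, filled for an adjusted p under 0.05, with the median as an orange line. The medians run from -0.08 for ligands and lipid enzymes to 0.19 for the 7 tested homing genes. The point furthest to the right is CD34, at 0.0618 CPM in SCR1 and 0.572 CPM in KO.

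For each called gene, the 2 protein-coding genes most alike over the 9 libraries were looked up among 9175 with a mean of at least 10 CPM, by Pearson's r of log2 CPM. They were CTBS and SLC25A36 for ITGA4 (0.989 each), NF1 and ADNP for ITGB1 (0.988 and 0.984), BAZ2A and BCL6B for ITGA5 (0.975 and 0.961), and ZSCAN30 and FAN1 for CXCR4 (0.971 and 0.964). The points share the libraries and the group difference, and all 8 genes were themselves called higher. Between ITGA4 and ITGB1, r was 0.88 over the libraries and 0.524 after the group means were taken out, and between ITGA4 and ITGA5 it was 0.656 and -0.821.

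**Figure D5:**
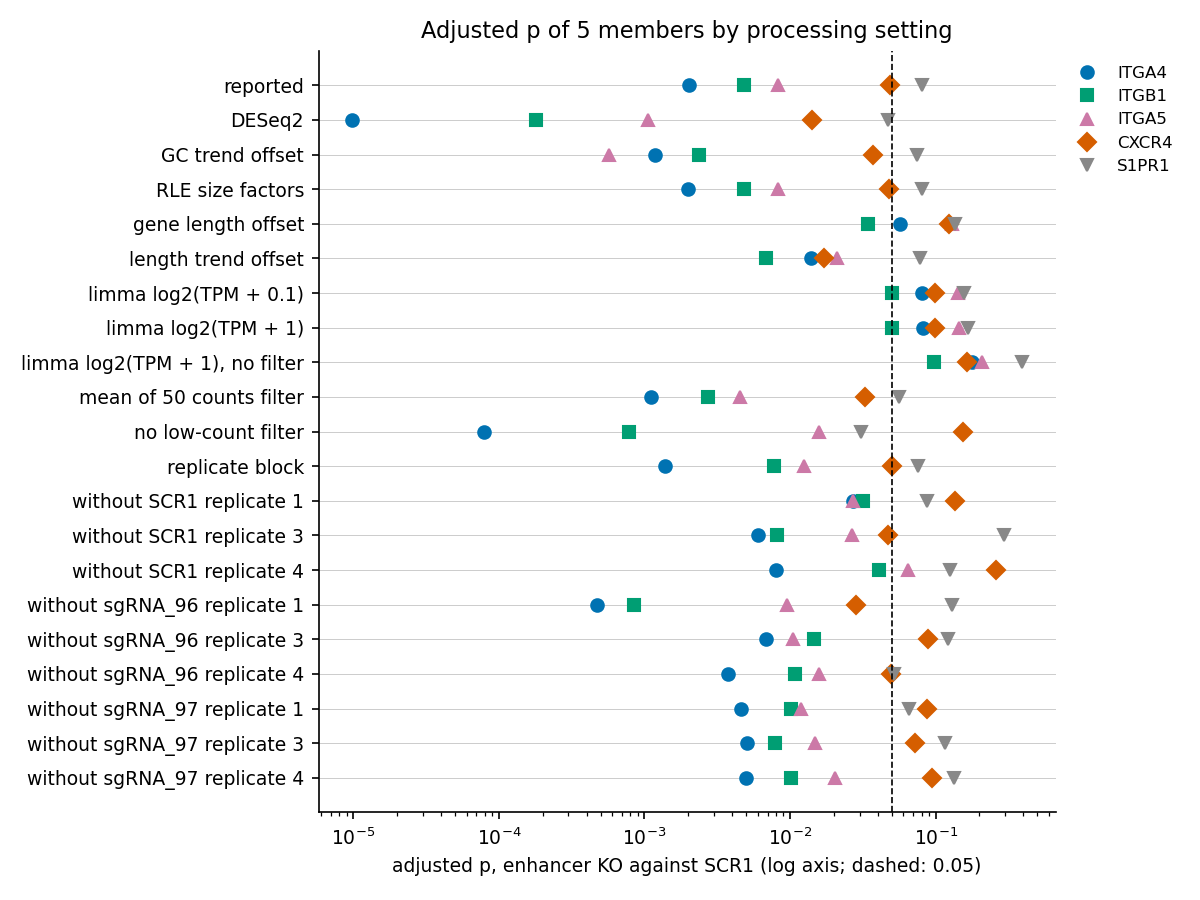
Adjusted p of ITGA4, ITGB1, ITGA5, CXCR4 and S1PR1 in enhancer KO against SCR1 (horizontal axis, logarithmic, dashed line at 0.05) under the reported setting and 20 others. ITGA4 and ITGB1 stayed under the line in every run without 1 library, and CXCR4 crossed it in 6 of 9 such runs. With TPM values (limma) ITGA4, ITGA5 and CXCR4 lay past it. ITGB1 lay at the line with a pseudocount of 0.1 and past it with 1 (adjusted p = 0.0502, and 0.0978 with no filter, limma).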

How the data were processed

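The authors made TruSeq libraries from poly(A) RNA and ran nf-core/rnaseq, in which TrimGalore trimmed the reads, STAR placed them on hg38 and Salmon 1.10.1 estimated transcript abundance. They deposited estimated counts per transcript, not normalized, and TPM, which Salmon scales by effective length to a sum of 1000000 per library. No source used here names the annotation, but the 252835 transcripts all matched GENCODE 44. Whether counting used strand was not stated.

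Transcripts were summed per gene, and estimated counts were rounded. P2RY8 has a second annotated copy on chromosome Y with 0 counts, so adding it changed nothing. Genes kept by filterByExpr (minimum count 10) were scaled by TMM and tested with edgeR 4.0.16 (R 4.3.3) in all 9 libraries, KO against SCR1 or 3 groups, with Benjamini-Hochberg adjustment over 14436 genes. CPM uses TMM-scaled sizes. Totals of 15212462 to 29777361 counts limit low genes. The scripts were tested on simulated data. Replicate pairs differed by more than sampling noise (chi-square per degree of freedom 4.32 to 8.62), so none was counted as 1 sample. The members and lists were chosen with earlier results of these data known.

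Named genes are the 9, preset partners, and per list up to 4 genes with an adjusted p under 0.05, KO values that do not overlap SCR1 and a mean of 1 CPM or more, by largest change. Alternatives were RLE factors, DESeq2 1.42.0, 2 other filters, a replicate block, gene length offsets, limma 3.58.1 on TPM, and leaving out each library. GC and length trend offsets were added after seeing the data. One named gene is not reported here.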

Additional observations from a re-analysis of the deposited data

Results flagged for a closer look

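In the 6 KO libraries, 36 named genes were screened for 1 value far from the rest by Dixon's test at 95%, and 2 stood out, where chance alone gives about 1.8. ACKR3, the other CXCL12 receptor, measured 0.434 CPM (8 counts) in sgRNA_96 replicate 4 and 0 in the other KO libraries. SELPLG, the P-selectin ligand, measured 1.17 CPM (24 counts) in sgRNA_96 replicate 3, against 1.52 to 1.72 CPM in the remaining 5. Both rest on few reads.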

How the results depend on the processing

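The direction of ITGA4, ITGB1, ITGA5 and CXCR4 in KO against SCR1 held under all 20 alternatives. Their calls did not. The count of 4 called became 1 with the gene length offset (ITGB1), 1 with limma on log2(TPM + 0.1), 0 with log2(TPM + 1) and 0 with that and no filter, where 5, 5, 5 and 4 genes had an unadjusted p under 0.05, and 2 to 4 without 1 library, the 2 being ITGA4 and ITGB1 without SCR1 replicate 4. Under those length-aware settings fewer genes of the whole table passed too (10.2, 8.63, 8.59 and 2.37%). DESeq2 called 5. For sgRNA_96 the count of 3 became 0 with the gene length offset and each TPM setting, 1 with the length trend offset, and 0 to 3 without 1 library. For sgRNA_97 it became 0 under the gene length offset and each TPM setting and 1 to 4 without 1 library. The list calls, 36, became 22 with the gene length offset, 17 with log2(TPM + 0.1), 16 with log2(TPM + 1), 10 with no filter on TPM, and 21 to 44 without 1 library. The causes were not tested.

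Genes with no call changed sign. ITGB2 was positive with the GC trend offset (0.0513), the length trend offset (0.0058) and the 50-count filter (0.0049), and ran from -0.0345 to 0.0342 without 1 library. ITGB7 was positive with the gene length offset (0.0032) and with TPM (0.0158 with a pseudocount of 0.1 and 0.0117 with 1, filtered or not). P2RY8 was -0.0034 for sgRNA_97 with the length trend offset, and without 1 library ran from -0.0139 to 0.089 for sgRNA_96 and from -0.0080 to 0.0471 for sgRNA_97. The order of levels kept 7 to 9 of 9 ranks without 1 control.

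The replicate numbers 1, 3 and 4 recur in each group, and the labels do not say what they mark. Deviations from the group mean correlated at -0.0844 to 0.0655 for same-numbered libraries and at -0.0693 to 0.114 for differently numbered ones. With groups of 3, such values cannot show whether a number marks a shared culture or batch. With the replicate block, 3 of the 4 members stayed called for KO (CXCR4 at an adjusted p of 0.0502), 2 for sgRNA_96 and 3 for sgRNA_97, 0 differed between guides, and 38 list genes were called. Depth limits S1PR1, CCR7, ITGAL, CD69 and SELPLG.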
